A study of Homo sapiens with 6 samples.

Results

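The genes described here carry glucose across membranes and put the first phosphate on it. They are 6 carriers of the SLC2A (GLUT) family (SLC2A1, SLC2A3, SLC2A6, SLC2A8, SLC2A10 and SLC2A12) and 3 hexokinases (HK1, HK2 and HKDC1). Members were taken by official gene symbol from the 19240 genes of the count table, and all 9 were in it. Their Entrez Gene numbers are 6513, 6515, 11182, 29988, 81031 and 154091 for the carriers in that order, and 3098, 3099 and 80201 for the hexokinases. A549, a long-established line from a human lung carcinoma, was grown for 48 h with 25 mM glucose or in the absence of glucose. The labels name no other treatment, allele or agent in either group. Each group had 3 libraries of reads from transcript 3' ends. Nothing in the labels says that they came from separate cultures. A p-value here thus sets the difference between groups against the spread of these libraries, which may be only technical. RNA came from whole cell populations, so fewer cells of a type and less RNA per cell cannot be told apart.

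SLC2A proteins let glucose run down its gradient into the cell. Hexokinases then use ATP to make glucose 6-phosphate, which cannot leave by the same carriers and feeds glycolysis, the pentose phosphate pathway and the making of sugar nucleotides. SLC2A1 (GLUT1) is the widespread basal carrier and SLC2A3 (GLUT3) has a high affinity for glucose. SLC2A6 and SLC2A8 belong to the carriers that sit mainly on inner membranes, and SLC2A10 and SLC2A12 to a further branch of the family. HK1 is the broadly expressed hexokinase, HK2 the inducible form known from muscle and many tumors, and HKDC1 a hexokinase-like gene that lies next to HK1 in the genome.

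Without glucose, the mix of carriers and of hexokinases shifted in the same libraries. SLC2A1 rose 1.78-fold and SLC2A3 fell, its level without glucose being 0.184 times that with glucose. HKDC1 rose 2.55-fold and HK2 rose from nearly nothing to a low level. No change of HK1 passed the test. Tested with edgeR (quasi-likelihood, Benjamini-Hochberg adjusted over 11886 genes), 3 of 8 members rose, 1 fell, and the other 4 missed the threshold. SLC2A10 was not tested because it had no counts. HK2 passed the filter on low counts only through the libraries without glucose, where it was high. Of all genes tested, 11.6% were higher and 10.7% lower without glucose, 22.3% together. The members' share, 4 of 8, is above that, but 8 genes are few. They were also chosen with earlier results of these data known, so the comparison is descriptive only. The median log2 fold change was 0.35 over the 8 members and 0.02 over all genes tested.

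Depth ran from 6701004 to 14259943 counts in genes for cells given glucose, and from 11086416 to 14060313 for cells without it. Of the carcinoma markers, KRT7, KRT8, KRT18, AKR1B10 and ALDH1A1 were abundant, and EPCAM and CDH1 were low, with means of 4.10 and 5.93 CPM (counts in every 1000000 of the scaled library total) with glucose and 3.09 and 7.87 CPM without. The 9 markers of the line together made 9905 to 11090 CPM with glucose and 8274 to 8636 without, and 3 of the 9 fell. The surfactant genes SFTPC, SFTPA1 and SFTPA2 of alveolar type 2 cells were at 0 in all 6 libraries. The 9 markers of that type summed to 15.4 to 16.1 CPM with glucose and 27.2 to 33.3 CPM without. Nearly all of the sum with glucose was ABCA3, at a mean of 14.7 CPM with glucose and 22.1 CPM without. ABCA3 missed the threshold (edgeR adjusted p = 0.0581), and LAMP3 rose (means 0.0234 and 7.27 CPM). Among 13 markers of blood, vessel and stroma, 6 were at 0 (among them CD3E, DCN and VWF) and only 3 could be tested. All 3 passed: CD68 rose (means 15.1 CPM with glucose and 31.0 CPM without). COL1A1 (12.5 and 4.87 CPM) and CD14 (1.13 and 0.0807 CPM) fell. The list summed to 28.5 to 31.2 CPM with glucose and 30.6 to 43.7 CPM without, most of it from CD68 and COL1A1. Counts in these lists and the next stand beside 11.6% of all genes tested that were higher without glucose and 10.7% that were lower. Of 13 immediate-early and heat-shock genes listed for handling stress, 6 rose and none fell. Whether they rose from handling or from the absence of glucose was not tested. Their sum went from 2693 to 2764 CPM with glucose to 3349 to 3643 CPM without. Their part in the results below was not tested.

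The sequences before the start sites of the 3 members that rose were searched for short motifs because these genes moved in the same direction, and those of the hexokinases HKDC1 and HK2 are shown. RefSeq start sites (GRCh38.p14, not the build the reads were aligned to) were found for 8 of the 9 members, and SLC2A3 had no entry. In the GENCODE annotation the SLC2A1 window and part of the window before the first HK2 start lie in exons, so these are described by their matches only. Each line gives the 250 bases before a start, 5' to 3' on the gene's strand. Capitals mark matches, on either strand, to 4 motifs. CCAAT is the CCAAT box of many promoters. The word CCACG is the far end of the endoplasmic reticulum stress element. A common core of hypoxia response elements reads ACGTG. A form of the amino acid response element reads TGATGNAA. In the second HK2 window, CCACG and ACGTG matches overlap.
HKDC1, chr10:69220082-69220331, plus strand: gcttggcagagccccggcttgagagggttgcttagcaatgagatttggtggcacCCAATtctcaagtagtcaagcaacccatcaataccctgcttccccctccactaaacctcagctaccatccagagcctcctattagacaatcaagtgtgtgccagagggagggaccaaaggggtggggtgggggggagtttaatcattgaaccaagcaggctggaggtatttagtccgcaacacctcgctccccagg
HK2 second start, chr2:74834920-74835169, plus strand: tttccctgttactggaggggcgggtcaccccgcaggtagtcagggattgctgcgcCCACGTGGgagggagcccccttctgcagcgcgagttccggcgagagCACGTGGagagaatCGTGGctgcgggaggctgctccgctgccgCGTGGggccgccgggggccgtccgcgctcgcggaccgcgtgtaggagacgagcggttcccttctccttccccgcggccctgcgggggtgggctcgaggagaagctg

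SLC2A1 and HKDC1 each held a single CCAAT, 47 and 196 bases before the start, and no match to the other words. HK2, which has 2 starts in the table, held 2 CCAAT, 3 CCACG and 2 ACGTG before the first start. Before the second it held 5 CCACG and 4 ACGTG matches; the latter are 2 places read on both strands. Over 34788 windows of the same length, 32.0% held CCAAT, 33.5% CCACG, 18.5% ACGTG and 3.16% TGATGNAA. That whole stress element (ERSE, a CCAAT followed 9 bases later by CCACG) was in 26 of these windows, or 0.0747%, and in none of the windows of the 8 members. No word was in all 4 windows of these genes. SLC2A6 and SLC2A8, which did not pass the test, held 2 and 3 CCAAT in windows of the same length. SLC2A10, which had no counts, held 1 CCACG and 1 ACGTG. HK1, which did not pass either, held CCACG before several of its starts and was the only member with TGATGNAA. The windows of its first and second starts overlap and hold the same CCACG and TGATGNAA matches. The matches describe letters, not binding.

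SLC2A1 was the most abundant member in both groups. It stood at 107.9, 80.2 and 75.4 CPM in replicates 1, 2 and 3 with glucose and at 151, 164 and 155 CPM without. The groups did not overlap, and replicate 1 with glucose was the highest of its group. The log2 fold change was 0.84 ± 0.21 (SE), adjusted p = 0.0125 by the edgeR quasi-likelihood test. Leaving out replicate 2 with glucose ended the call (edgeR adjusted p = 0.0628, log2 fold change 0.77), as did leaving out replicate 3 with glucose (edgeR adjusted p = 0.0649, log2 fold change 0.73).

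SLC2A3 moved the other way. It had 25.4, 37.6 and 26.5 CPM with glucose and 6.35, 4.90 and 5.30 CPM without, from 949 and 203 counts in all. Every library without glucose lay below every library with glucose, by a wide margin. The log2 fold change was −2.44 ± 0.25 (SE), edgeR adjusted p = 7.5e-05, and it passed under all 12 alternatives computed. SLC2A14, a near-identical copy that lies beside SLC2A3, was at 0 in every library. Reads that fit both genes equally well are not in the gene counts, so the level of SLC2A3 is uncertain.

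The other carriers showed no change past the test. SLC2A6 had 58.5, 56.1 and 56.0 CPM with glucose and 83.7, 57.9 and 59.3 CPM without. Only replicate 1 without glucose stood well above the rest, and the log2 fold change of 0.24 ± 0.21 (SE; edgeR adjusted p = 0.443) was 0.04 without that library. SLC2A8 had 14.8, 12.1 and 8.51 CPM with glucose and 12.9, 15.9 and 19.7 CPM without. Its groups overlapped, with a log2 fold change of 0.47 ± 0.26 (SE; edgeR adjusted p = 0.226). SLC2A12 was near 1 CPM throughout, with 53 counts in all with glucose and 49 without (log2 fold change −0.33 ± 0.53, SE; edgeR adjusted p = 0.686). A difference between its groups was not detectable at this depth. SLC2A10 had 0 of 69213529 counts, which allows a level of up to 0.0433 CPM over all libraries (a floor of 3 counts, for counting error only). Within a group the limit was 0.0959 CPM with glucose and 0.0791 CPM without.

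**Figure D1:**
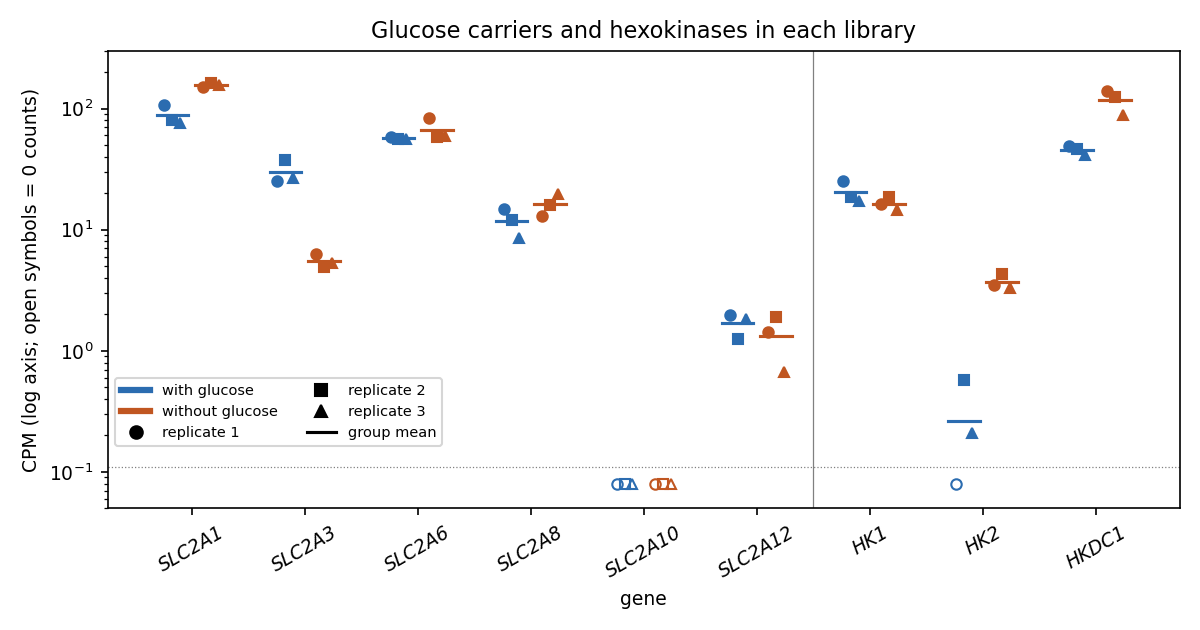
Level of each member in each library, in CPM on a log axis, with bars at group means (blue with glucose, orange without) and open symbols for libraries with 0 counts. SLC2A1, HK2 and HKDC1 are higher and SLC2A3 lower in all 3 libraries without glucose, while the other members overlap or are at 0.

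HKDC1 was the most abundant hexokinase in every library. It had 49.1, 46.8 and 41.6 CPM with glucose and 138, 124 and 88.0 CPM without. The lowest library without glucose, replicate 3, was still well above the highest with glucose. The log2 fold change was 1.35 ± 0.22 (SE), edgeR adjusted p = 0.00125, and it passed under all 12 alternatives.

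HK2 was hardly seen with glucose, where the 3 libraries had 0, 6 and 3 counts. Without glucose they had 37, 56 and 45 counts, or 3.51, 4.28 and 3.31 CPM. Relative to the scaled library totals the pooled ratio was 13.1 (exact 95% interval 6.69 to 29.2, counting error only), and the edgeR adjusted p was 0.00208. Without replicate 2 with glucose, 3 counts were left in that group and the ratio was 26.3 (8.83 to 129). HK2 passed under all 12 alternatives, but the size of its change rests on 9 counts.

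HK1 had 25.4, 18.5 and 17.2 CPM with glucose and 16.2, 18.6 and 14.4 CPM without. The groups overlapped, with a log2 fold change of −0.31 ± 0.23 (SE) and an edgeR adjusted p of 0.360. HK1 thus had a level between those of HKDC1 and HK2 in both groups. Groups that did not overlap were seen for 3 members higher without glucose (SLC2A1, HK2 and HKDC1) and 1 lower (SLC2A3); over all genes tested these shares were 21.0% and 19.4%.

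**Figure D2:**
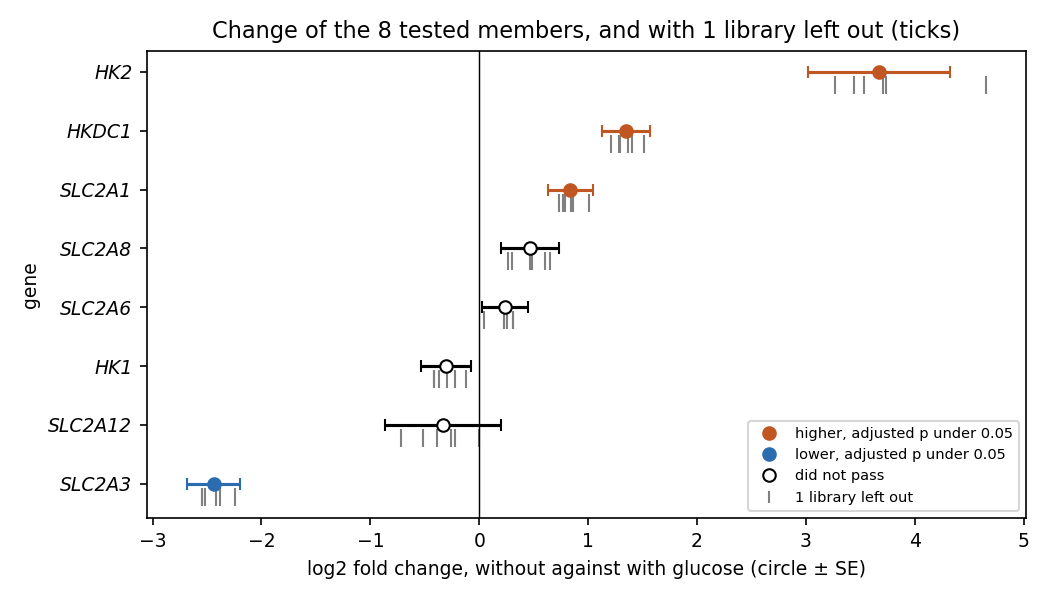
Log2 fold change (without against with glucose) of the 8 tested members, circles with SE, filled where the edgeR adjusted p was under 0.05; grey ticks give the value with 1 library left out. The ticks of HK2 run from 3.27 to 4.66, those of HKDC1 from 1.21 to 1.51 and those of SLC2A3 from −2.55 to −2.24, and no member that passed crosses 0.

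The order of the levels changed between the groups. Each read marks a transcript end, so levels were not divided by length; how evenly the 3' ends of different genes were captured was not tested. With glucose the order was SLC2A1, SLC2A6, HKDC1, SLC2A3, HK1, SLC2A8, SLC2A12, HK2 and SLC2A10, with means of 87.8, 56.9, 45.8, 29.9, 20.4, 11.8, 1.68, 0.262 and 0 CPM. Neighbours whose libraries overlapped were SLC2A3 with HK1, and HK2 with SLC2A10. Without glucose HKDC1 (mean 117 CPM) came before SLC2A6 (67.0 CPM), and SLC2A3 (5.52 CPM) came after SLC2A8 (16.2 CPM). The only neighbours that overlapped there were HK1 and SLC2A8. HK2 (3.70 CPM) then stood above SLC2A12 (1.33 CPM), the reverse of their order with glucose.

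Shares within a family compare genes inside 1 library and need no scaling between libraries. SLC2A1 made up 51.7%, 42.8% and 44.8% of carrier counts with glucose and 59.1%, 67.0% and 64.7% without. SLC2A3 went from 12.2%, 20.1% and 15.7% to 2.49%, 2.01% and 2.21%. The lowest of the former (exact 95% interval 10.6% to 14.0%) was far from the highest of the latter (1.93% to 3.15%). The mean share of SLC2A1 was thus 17.1 percentage points higher, and that of SLC2A3 13.8 points lower (difference −13.8). SLC2A6 held 30.4% ± 2.66 with glucose and 27.1% ± 4.98 without (SD, n = 3 libraries per group), and its groups overlapped. SLC2A8 held 6.21% ± 1.05 and 6.58% ± 1.56, also with overlap.

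Among hexokinases, HKDC1 held 65.9%, 71.0% and 70.6% of the counts with glucose and 87.5%, 84.4% and 83.2% without. HK1 held 34.1%, 28.1% and 29.1% with glucose and 10.3%, 12.6% and 13.6% without, although its own level did not pass the test. HK2 went from 0.411% ± 0.440 to 2.75% ± 0.477 (SD, n = 3 per group) and remained the smallest share. For SLC2A1, SLC2A3, HK1, HK2 and HKDC1 the shares of the groups did not overlap. The two-sided exact permutation p was 0.10 for each, the smallest that 3 against 3 libraries allow, so these shares cannot pass 0.05. Shares of 1 family add up to 100%, so the changes are not independent of each other.

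**Figure D3:**
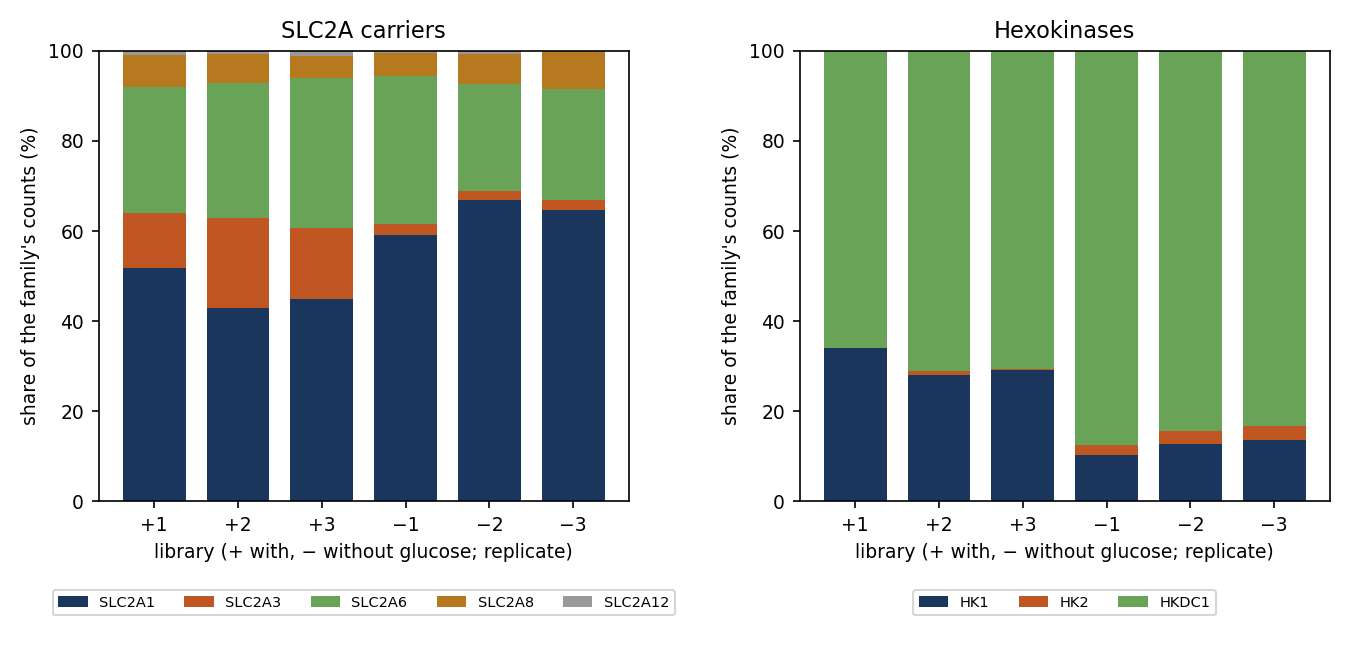
Share of each gene in the counts of its family (percent), in each of the 6 libraries (+ with glucose, − without, then the replicate), for the carriers and the hexokinases. SLC2A3 shrinks to 2.01% to 2.49% of carrier counts without glucose, and HKDC1 takes 83.2% to 87.5% of hexokinase counts.

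Ratios between members follow from the same counts. There were 4.24, 2.13 and 2.85 SLC2A1 counts for each SLC2A3 count with glucose and 23.8, 33.4 and 29.3 without. HKDC1 had 1.93, 2.52 and 2.43 counts for each HK1 count with glucose and 8.54, 6.67 and 6.10 without. The ratio of SLC2A1 to SLC2A6 overlapped between the groups, at 1.85, 1.43 and 1.35 with glucose and 1.80, 2.82 and 2.62 without. Summed over the carriers, the level was 188 ± 20.1 CPM with glucose and 247 ± 7.74 CPM without (SD, n = 3). For the hexokinases it was 66.5 ± 7.81 CPM with glucose and 137 ± 27.5 CPM without. In both sums every library without glucose was above every library with glucose.

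Of the 10 other family genes looked at, 8 had too few counts to test. SLC2A2, SLC2A5, SLC2A14 and HK3 were among those at 0 in all libraries. SLC2A11, a further carrier of the family, rose. It had 3.95, 3.74 and 2.95 CPM with glucose and 14.5, 8.64 and 9.72 CPM without, with groups that did not overlap (log2 fold change 1.63 ± 0.30, SE; edgeR adjusted p = 0.00256). SLC2A13, a carrier of myo-inositol, missed the threshold (log2 fold change −0.30).

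Of 8 tested genes for other ways by which sugars enter metabolism, 1 rose and none fell, with a median log2 fold change of 0.15. With 8 genes these counts are close to the shares over all genes tested, 11.6% higher and 10.7% lower. The 1 that rose was GALK2, which phosphorylates N-acetylgalactosamine and galactose. It stood at 16.2 ± 2.39 CPM with glucose and 32.8 ± 10.2 CPM without (SD, n = 3 each). It missed the threshold without replicate 3 with glucose (edgeR adjusted p = 0.0545) and without replicate 1 without glucose (0.0514). Sodium-coupled glucose carriers SLC5A1 and SLC5A2 were at 0.

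The later steps of glycolysis moved in 1 direction only, downward, where they passed. Of 16 tested genes from glucose 6-phosphate isomerase to lactate dehydrogenase, 6 (37.5%) fell, none rose and 10 did not pass. Over all genes tested, 10.7% were lower and 11.6% higher without glucose. The 16 genes are few and, like the members, were listed with earlier results of these data known. The median log2 fold change was −0.41, against 0.02 over all genes. PGAM1, the phosphoglycerate mutase, went from 148, 125 and 110 CPM to 44.3, 57.6 and 66.5 CPM (log2 fold change −1.19). LDHA, which turns pyruvate into lactate, PKM, the pyruvate kinase, and TPI1, the triosephosphate isomerase, had log2 fold changes of −0.75, −0.76 and −0.79. GPI and PGK1, which the naming rule does not cover, completed the 6 (−0.78 and −0.66). Several of these genes have processed pseudogenes, and reads that align to more than 1 place are not in the gene counts, so their levels are uncertain. With a replicate block 3 of the genes fell, and when 1 library was left out 4 to 6 fell. ENO3, an enolase, rose only without replicate 1 of the cells without glucose.

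**Figure D4:**
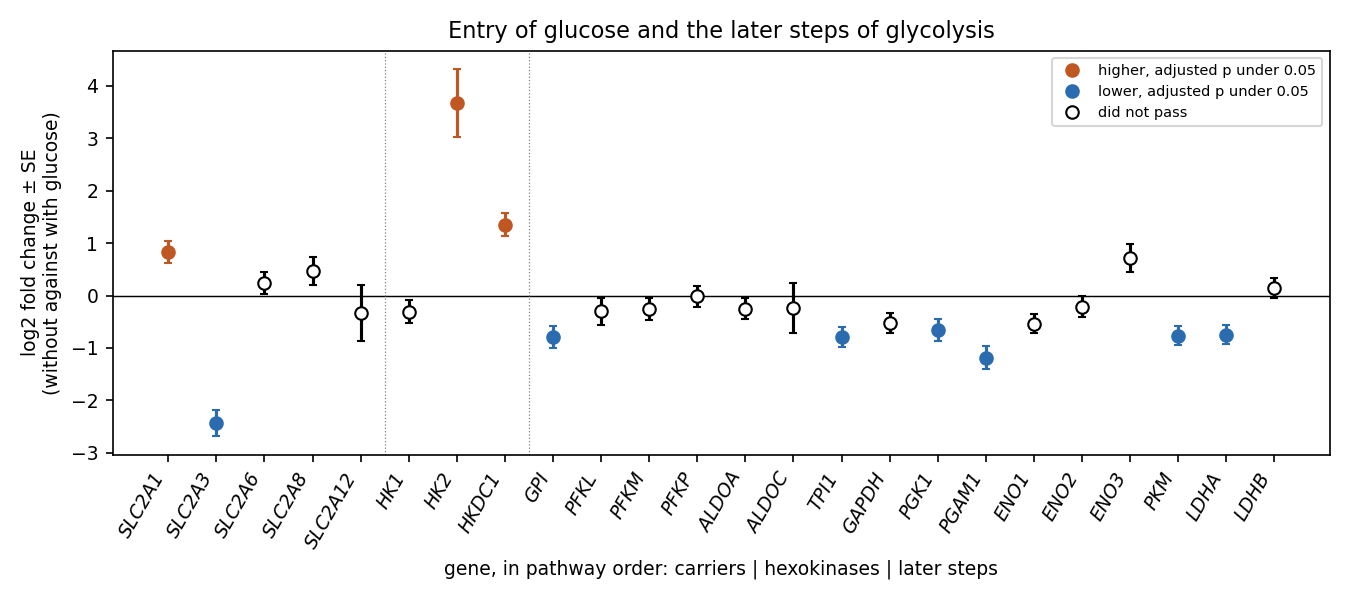
Log2 fold change ± SE (without against with glucose) in pathway order, for the 8 tested members left of the second dotted line and 16 tested genes of the later steps right of it. Filled circles passed the edgeR test: 3 members rose and 1 fell at the entry, and 6 genes fell among the later steps.

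Of 15 tested genes that act on the carriers or hexokinases, 1 rose and none fell (median log2 fold change −0.06), where 11.6% and 10.7% of all genes tested did; with 15 genes the counts are close to these shares. MLX and MYC, transcription factors named after their values were seen, missed the threshold with log2 fold changes of 0.63 and −0.59 (edgeR adjusted p = 0.0776 and 0.0652). VPS35, of the retromer that returns carriers to the cell surface, stood at 193 ± 18.8 CPM with glucose and 306 ± 69.0 CPM without (SD, n = 3 each), with a log2 fold change of 0.67 ± 0.22 (SE; edgeR adjusted p = 0.0441). That call was lost with library totals as scaling (0.0570), with a replicate block (0.102) and when any 1 library was left out except replicate 2 without glucose (adjusted p up to 0.192). TXNIP, an arrestin-like protein that draws SLC2A1 from the membrane and a classic glucose-induced gene, had only 5 counts over the libraries with glucose and 9 without. The ratio was 1.53 (exact 95% interval 0.462 to 5.83). ARRDC4, its relative, had 1 and 2 counts.

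Over the 6 libraries, the genes whose centred log2 CPM lay nearest to SLC2A1 were COPG1, EEIG1 and GFRA1, with root mean square differences of 0.06, 0.08 and 0.08. Those nearest to SLC2A3 were CHAF1A, a chromatin assembly factor, ARHGEF39 and AURKA, a mitotic kinase (0.16, 0.16 and 0.18). The search took in 11134 genes. AURKA had 154, 287 and 187 CPM with glucose and 38.1, 40.8 and 39.8 CPM without.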

How the data were processed

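Reads per gene were counted in 6 libraries of A549 cells. The authors' table holds raw counts, deposited by Entrez Gene number and made with STAR and HTSeq on hg19, per the submitters' processing notes; versions, annotation and strand setting were not given in the sources used here, though the libraries are strand-specific per the labels. Per the labels' protocols, cDNA was primed with barcoded oligo-dT, pooled by Actb quantitative PCR and amplified by PCR, with no molecular identifiers mentioned, so intervals cover counting error only. The 5 HTSeq summary lines were left out; genes took 43.1% to 44.7% of the lines' total.

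Symbols came from a RefSeq table (GRCh38.p14; 19178 of 19240 genes), used for names and gene order. Counts were tested with edgeR 4.0.16 (R 4.3.3; glmQLFTest, TMM, filterByExpr with a minimum count of 10, two-sided, adjusted p under 0.05, no block). SE is the log2 fold change divided by the root of F. CPM uses TMM-scaled totals. Scripts were tested on simulated data. Libraries of a group differed beyond sampling noise (chi-square over degrees of freedom 22.1 to 57.3).

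Members and gene lists were chosen with earlier results of these data known. The rule named the 9 members, TXNIP, ARRDC4, and in each list the passing genes (the 4 of smallest p where more passed). The 3 nearest patterns were sought among genes averaging 20 counts or more. Alternatives were other scalings (DESeq2 size factors, library totals), the DESeq2 1.42.0 Wald test, other filters, a replicate block and leaving out each library; for shares, pooled counts and every family gene as denominator.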

Additional observations from a re-analysis of the deposited data

How the results depend on the processing

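Calls of SLC2A3, HK2 and HKDC1 held under all 12 alternatives, with log2 fold changes of −2.55 to −2.24, 3.27 to 4.66 and 1.21 to 1.51; SLC2A1 held under 10 (0.73 to 1.01), and the number of members that rose was 2 without replicate 2 or 3 with glucose. Same-numbered libraries did not deviate together (correlations −0.324, −0.154 and 0.0477). Libraries of different numbers gave correlations from −0.257 to 0.311. These values gave no sign of pairing by replicate number. They cannot show that the libraries were not paired. The replicate block left 3 members higher and 1 lower, and it changed no other call among the members; among the later glycolysis genes 3 fell with it, where GPI, PGK1 and LDHA missed the threshold (edgeR adjusted p = 0.0593, 0.0874 and 0.0505). Leaving out 1 library gave 0 to 1 later glycolysis genes higher and 4 to 6 lower; DESeq2 found 8 lower. PGK1 was lost on leaving out any library but replicate 2 without glucose, and GPI when replicate 1 or 3 lacking glucose was dropped. The cause was not tested. No value that passed the test changed sign. Among genes that did not pass, ALDOC, FCSK, MLXIPL, PFKP, VDAC1, VDAC2 and VPS29 changed sign when 1 library was left out, VDAC1 from −0.28 to 0.44. The share differences of SLC2A1, SLC2A3, HK1, HK2 and HKDC1 kept their direction and stayed within 1 SD. Those of the other carriers were not part of the alternatives. The small SLC2A8 difference turns negative when replicate 3 of either group is left out. Over all genes 1376 were higher and 1276 lower; leaving out 1 library gave 858 to 1292 and 781 to 1232, and the replicate block 984 and 911. Depth limits HK2 with glucose, SLC2A12, TXNIP and ARRDC4; replicate 1 with glucose is the shallowest library.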
